A study of Mus musculus with 98 samples.

Results

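The gp38+CD26- cells are thymic fibroblasts that carry gp38 (podoplanin, encoded by *Pdpn*) but not CD26 (encoded by *Dpp4*) on their surface. Their transcriptome was compared here between newborn (P0) and 4-week-old mice. The members were chosen by their labels alone, as the bulk libraries of gp38+CD26- cells at either age, and they make up 12 of the 98 samples of the series, 6 at P0 and 6 at 4 weeks. All mice behind these 12 libraries were wild-type, with no treatment named. Live CD45- stromal cells were sorted from the thymus, and RNA of the sorted population was sequenced with an ultra-low-input protocol. The titles carry the prefix TXCK in 3 and DFCK in the other 3 libraries of each age, and its meaning is not stated. The labels do not say whether the libraries of a group came from separate mice, so p-values measure only the spread between these libraries, which may be technical. Sorted gp38+CD26+ cells of the same ages and genotype (12 libraries) and 4 single-cell libraries of wild-type thymic stroma (2 at P0, 2 at 4 weeks) were used for comparison.

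Fibroblasts of the thymus build its capsule, septa and medullary scaffold, secrete the collagens and basement membrane on which thymic epithelium and vessels rest, and release growth factors and chemokines for epithelial cells and thymocytes. Around birth the organ grows quickly, and in the weeks that follow it reaches its young adult size and architecture. Several imprinted genes, which are transcribed from 1 parental copy only, promote or restrain fetal growth and are known to be silenced after birth in many organs. Major histocompatibility complex (MHC) class I molecules, which nearly every nucleated cell can display, carry peptides to the surface.

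The 12 libraries held 10004254 to 15560221 counts in genes, with medians of 12567960.5 at P0 and 12567520.5 at 4 weeks. Levels are given as CPM, counts per 1000000 counts in genes of the same library. The sort was visible in the transcripts. *Pdpn* (ENSMUSG00000028583) was found at 200.1 to 382 CPM (median 234) at P0 and at 446 to 567 CPM (median 478) at 4 weeks, with no overlap between the ages (log2 fold change 1.05, SE 0.15, adjusted p = 0.000114). It was not called when 4 sorted populations shared 1 fit (adjusted p = 0.338). *Dpp4* lay between 0 and 25.9 CPM in all 12 libraries and was not called (log2 fold change -1.12, SE 0.97, adjusted p = 0.454), whereas gp38+CD26+ cells had 129 to 464 CPM (median 247) at P0 and 537 to 1075 CPM (median 771) at 4 weeks. The fibroblast receptors *Pdgfra*, at medians of 1129.9 and 1002 CPM at P0 and 4 weeks, and *Pdgfrb*, at 459.7 and 375 CPM, were not called either (adjusted p = 0.647 and 0.145). *Enpep*, which encodes Ly51, was at 29.5 and 40.3 CPM (adjusted p = 0.131). The 8 fibroblast genes checked (*Pdgfra*, *Pdgfrb*, *Col1a1*, *Col1a2*, *Col3a1*, *Dcn*, *Lum*, *Pdpn*) were all found and summed to 35805 to 50628 CPM (median 45379) at P0 and 39710.3 to 48896 CPM (median 42736) at 4 weeks. Of the lineage genes that the sort should remove, the endothelial *Pecam1* reached at most 2.52 CPM, the epithelial *Epcam* 2.26 CPM and the leukocyte gene *Ptprc* 10.0 CPM in any library, and *Ptprc* had an adjusted p of 0.165 (0.00526, with the lower level at 4 weeks, without 4-week replicate 5).

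Marker lists of other cell types were summed in each library. The 15 thymocyte genes together came to 24.6 to 94.4 CPM (median 67.5) at P0 and 7.84 to 74.2 CPM (median 10.5) at 4 weeks, and the 13 genes of thymic epithelium to 11.5 to 395 CPM (median 189) and 23.2 to 136.1 CPM (median 66.4). None of the 6 thymocyte and 7 epithelial genes that could be tested was called. A single thymocyte gene was called lower without 4-week replicate 5 or 6, and 1 and 3 epithelial genes were called lower without 4-week replicate 6 and P0 replicate 6, respectively. The 11 endothelial genes summed to 66.4 to 111.98 CPM (median 90.7) at P0 and 161.4 to 247 CPM (median 216) at 4 weeks, with *Plvap* higher and *Emcn* lower at 4 weeks. The 8 genes of mural cells, the contractile cells of the vessel wall, summed to 2141 to 2722 CPM (median 2316) and 1173 to 2939 CPM (median 1991), with *Rgs5* higher and *Kcnj8*, *Abcc9* and *Cspg4* lower at 4 weeks. The call of *Emcn* was lost without any 1 of 8 libraries, and the number of mural genes higher was 0 without any 1 of 6 and 2 without P0 replicate 3. The 5 mesothelial genes came to 0 to 311 CPM (median 38.9) at P0 and 0 to 62.4 CPM (median 3.54) at 4 weeks, and the 5 neural crest and glia genes to 0 to 11.3 CPM (median 0) and 0 to 10.7 CPM (median 2.69). Myeloid genes (9) reached at most 8.84 CPM and adipocyte genes (3) at most 16.3 CPM in sum.

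Red cell transcripts separated the ages. The 6 erythroid genes together were at 0 to 0.61 CPM (median 0.162) at P0 and at 27.4 to 3369.9 CPM (median 2446) at 4 weeks. *Hbb-bs*, a haemoglobin beta chain, had 0 to 0.0965 CPM (median 0) at P0 and 9.91 to 1469 CPM (median 1056) at 4 weeks, and *Hba-a1*, *Hba-a2* and *Hbb-bt* had medians of 734, 405 and 124.96 CPM at 4 weeks. These 4 genes are among the 10 with the largest rise. The division of reads within the haemoglobin pairs is uncertain because the copies are nearly identical. 4-week replicate 1 stood apart, with 9.91 CPM of *Hbb-bs* against 508 CPM or more in the other 5. Immediate early and heat shock genes, which respond to handling of the tissue, also moved. The 22 genes of that list summed to 18824 to 28423 CPM (median 22962) at P0 and 1566 to 7878 CPM (median 5387) at 4 weeks. Of the 22, 9 were lower and 3 higher at 4 weeks, against 11.5% and 12.9% of all genes tested. *Egr2*, *Socs3* and *Ier2* had the smallest p among those that fell, while *Hspa1a*, *Hspa1b* and *Hspb1* rose. 4-week replicate 1 was again the lowest for *Fos*, with 18.0 CPM against 468 CPM or more in the others. The study gated its nonepithelial stroma as negative for CD45, EpCAM and the red cell antigen Ter119, whereas the protocol of the bulk libraries names CD45 alone, and its methods add a magnetic CD45 depletion before the sort for adult thymus. The part of red cell RNA and of handling in the results below was not tested. Where only the 4-week samples went through the added depletion, its part cannot be told apart from that of age. Genes named in this and the preceding paragraph from the marker and handling lists were picked after their values were seen. Values without 4-week replicate 1 stand beside the results that it moved.

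Between P0 and 4 weeks, 2987 of 12279 genes tested were called, which is 24.3% of them. Called means an adjusted p under 0.05 in the quasi-likelihood test of edgeR. Of these, 1579 (12.9% of the genes tested) were higher and 1408 (11.5%) lower at 4 weeks. These shares are the background for each gene list below. The lists were chosen with earlier results of these data known, so a share above the background is not independent of that choice. The lists with the lowest shares called were MHC class II presentation (1 of 8 genes), Wnt (17.6%), retinoic acid and hedgehog (26.3%) and mesenchymal transcription factors (35.1%), and the other 20 had 42.9% or more. With a change of more than 2-fold also required, 1054 genes were higher and 802 lower, which together are 15.1% of those tested. The CPM of the 6 P0 and the 6 4-week libraries did not overlap at all for 2136 genes (17.4%), of which 1947 were called. The median log2 fold change (4 weeks minus P0) over all genes was -0.09. Without 4-week replicate 1, 1652 genes were higher and 1149 lower, with 17 genes of MHC class I presentation and 10 of complement higher, and 16 imprinted, 19 cell division and 10 immediate early and heat shock genes lower. Within the prefixes, where 3 libraries face 3, the call numbers were smaller. In TXCK libraries 992 genes were higher and 657 lower, and in DFCK libraries 773 were higher and 412 lower. All named genes that were called moved the same way within each prefix. They were picked on these same libraries, so this agreement is not independent of that choice. Besides those given with their lists below, *Adamts2*, *Boc*, *Col4a5*, *Ebf2*, *Pde1b*, *Pdpn* and *Spry4* were not called in DFCK libraries alone (adjusted p between 0.0569 and 0.341), *Agrn*, *Agt*, *Aldh1a2*, *Fgf7*, *H2-DMb1*, *Sgk1* and *Slc16a12* not in TXCK libraries alone (0.0513 to 0.141), and *Col4a5*, *Mmp23* and *Pde1b* not when 4 sorted populations shared 1 fit (0.0501 to 0.261). In bulk samples such as these, fewer cells of a type and less RNA per cell cannot be told apart.

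**Figure D1:**
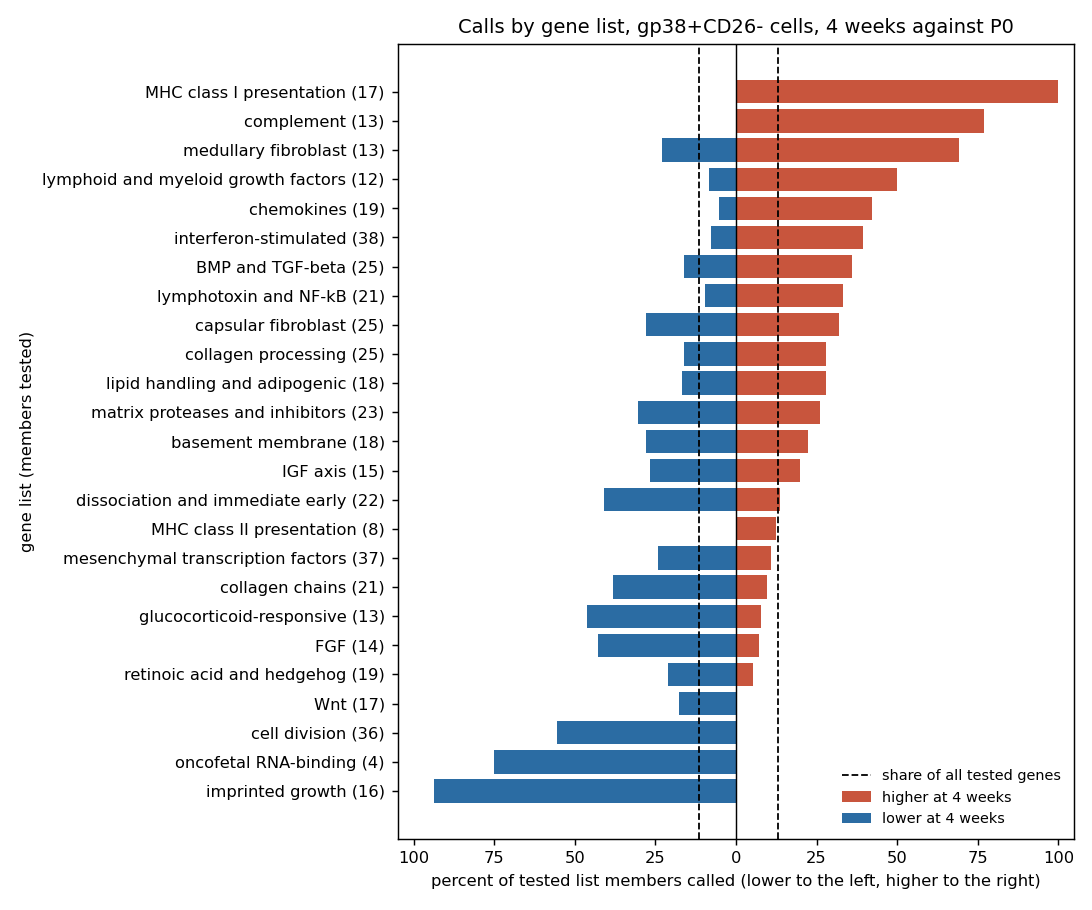
Share of the tested members of each gene list that was called in gp38+CD26- cells, in percent. Bars to the right are genes higher at 4 weeks, bars to the left genes lower at 4 weeks, the numbers in brackets are members tested, and the dashed lines mark the shares over all 12279 genes (12.9% higher, 11.5% lower). MHC class I presentation lies at the far right with 17 of 17, and imprinted growth at the far left with 15 of 16. The lists were chosen with earlier results of these data known.

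Imprinted growth genes were much lower at 4 weeks. Of the 20 genes of this list, 16 were tested, 15 fell and none rose, against 11.5% of all genes that fell. The median log2 fold change of the 16 was -5.34, with or without the 2 genes that had no count at 4 weeks set to their bound. *Rian* was not called (log2 fold change -1.77), and *Mirg*, *Nnat*, *Phlda2* and *Zim1* were too low to test.

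*Mest* (ENSMUSG00000051855), a paternally expressed hydrolase gene, was found at 2904 to 4505 CPM (median 3148) at P0 and at 8.07 to 29.8 CPM (median 12.9) at 4 weeks (log2 fold change -7.57, SE 0.35, adjusted p = 7.23e-09). *Igf2* (ENSMUSG00000048583), which encodes the fetal growth factor IGF2, was found at 294 to 752 CPM (median 545) at P0 and at 3.57 to 8.98 CPM (median 6.57) at 4 weeks (log2 fold change -6.21, SE 0.29, adjusted p = 7.23e-09). The lowest newborn library was above the highest 4-week library for both by a wide margin. *H19*, the noncoding RNA transcribed next to *Igf2*, had 2232 to 2664 CPM (median 2448) at P0 and 0.257 to 36.5 CPM (median 3.25) at 4 weeks (log2 fold change -8.03, SE 0.91, adjusted p = 1.94e-05). *Dlk1*, which encodes a membrane protein that restrains adipocyte differentiation, was at 1878 to 2538 CPM (median 2237) in newborns and 0 to 10.3 CPM (median 3.85) at 4 weeks (log2 fold change -8.89, SE 0.67, adjusted p = 4.97e-07). Thus none of these 4 transcripts, each at 294 CPM or more in every newborn library, passed 36.5 CPM in any 4-week library.

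*Peg3*, a zinc finger gene, had 723 to 1090.5 CPM (median 845) at P0 and 10.7 to 32.7 CPM (median 14.3) at 4 weeks (log2 fold change -5.49, SE 0.28, adjusted p = 1.26e-08). *Grb10*, an adaptor that dampens insulin and IGF signalling, was also lower at 4 weeks but did not approach 0. It went from 1954 to 3045 CPM (median 2295) at P0 to 276 to 458 CPM (median 303) at 4 weeks (log2 fold change -2.74, SE 0.16, adjusted p = 5.31e-08). *Plagl1*, a zinc finger transcription factor, was at 76.8 to 152 CPM (median 135.9) at P0 and had counts in only 1 of the 4-week libraries, replicate 1 with 2.44 CPM (log2 fold change -8.09, adjusted p = 1.99e-05). *Peg10*, derived from a retrotransposon, was at 47.2 to 143.1 CPM (median 89.7) at P0 and had no count in any 4-week library, which makes it at least 2234-fold lower when 3 counts over the 6 libraries are taken as the floor. *Magel2* fell from 6.19 to 48.5 CPM (median 19.5) at P0 to no count at 4 weeks, at least 537-fold lower by the same floor. *Klf14*, a maternally expressed transcription factor gene that was not on the list, was at 23.6 to 159 CPM (median 106) at P0 and without a count at 4 weeks, at least 2531-fold lower. All 3 have adjusted p-values of 7.28e-07, 5.73e-05 and 4.75e-06, in the same order.

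The genes that fell lie in several separate imprinted regions of the genome. In GENCODE vM21 (GRCm38), *Mest* (chr6:30723547-30748465) and *Klf14* (chr6:30956023-30959078) are neighbours, and *Peg10* (chr6:4747306-4760517) and *Asb4* (chr6:5383386-5433022) lie further up the same chromosome. On chromosome 7 there are *Peg3* (chr7:6703892-6730431), then *Ndn* (chr7:62346569-62350262) with *Magel2* (chr7:62377010-62381640), and then *H19* (chr7:142575529-142578143), *Igf2* (chr7:142650766-142666816) and *Cdkn1c* (chr7:143458339-143461050). *Dlk1* (chr12:109452823-109463336) and *Meg3* (chr12:109541001-109571726) are adjacent, and *Plagl1* (chr10:13060504-13131694) and *Grb10* (chr11:11930508-12038683) stand alone on chromosomes 10 and 11. Maternally expressed genes such as *H19*, *Meg3* and *Cdkn1c* fell along with paternally expressed ones such as *Igf2*, *Dlk1* and *Mest*. The log2 fold changes of *Meg3*, *Cdkn1c*, *Ndn*, *Asb4* and *Slc38a4* were -2.66, -4.95, -1.49, -5.19 and -3.39. The smallest among those that fell was that of *Igf2r*, which encodes the receptor that clears IGF2 (log2 fold change -0.67, SE 0.21, adjusted p = 0.0281).

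Imprinted genes were also lower in single cells of independent libraries. In medullary fibroblasts (MedFb) 17 of 18 tested list members were lower at 4 weeks and in CapFb1 fibroblasts, a class of capsular fibroblasts, 16 of 17, against 25.9% and 24.1% of all genes tested there. *Mest* was at 1076 and 991 CPM in the 2 newborn and 12.9 and 16.2 CPM in the 2 4-week libraries of medullary fibroblasts (log2 fold change -6.17, adjusted p = 4.98e-09). *Igf2* was at 54.2 and 49.7 CPM and 0.111 and 0.189 CPM (log2 fold change -8.34, adjusted p = 2.08e-08). *Klf14*, *Peg10* and *Magel2* were lower in both classes as well.

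**Figure D2:**
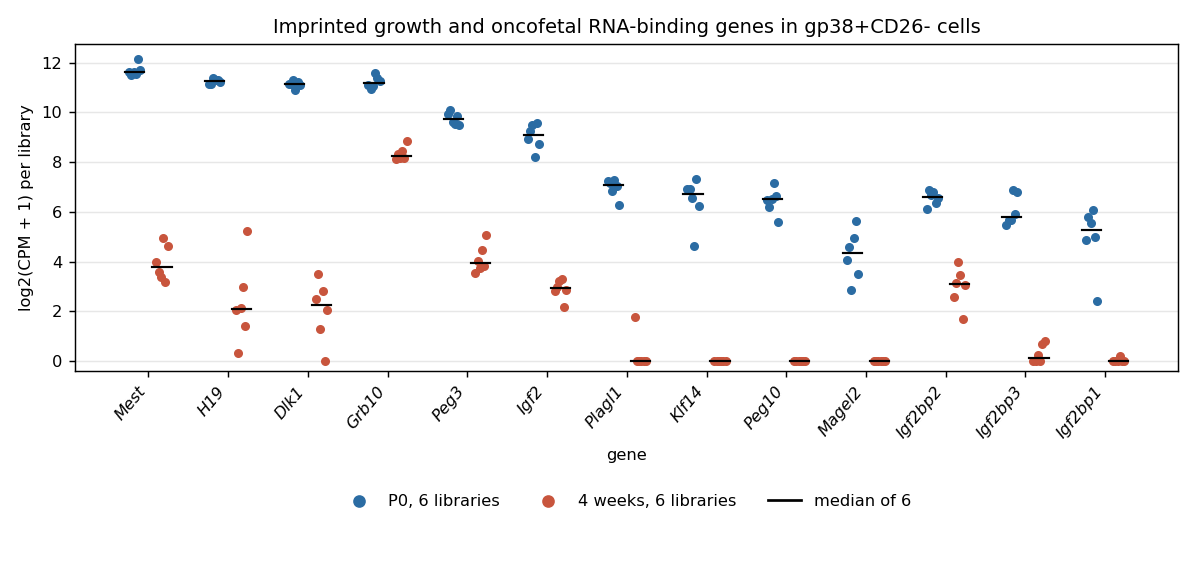
Level of named imprinted growth and oncofetal RNA-binding genes in each gp38+CD26- library, as log2(CPM + 1). Each point is 1 library (6 at P0 in blue, 6 at 4 weeks in red) and the bar is the median. The 2 ages do not overlap for any gene shown, which the naming rule required of the largest falls. *Klf14*, *Peg10* and *Magel2* have no count at 4 weeks.

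Genes of fetal RNA-binding proteins fell as well. Of the 4 oncofetal genes tested, 3 fell, against 11.5% of all genes, and *Hmga1* was not called (log2 fold change 0.89). Without 4-week replicate 1 or P0 replicate 6, 1 gene of the list was called higher. The 3 were the family of IGF2 mRNA-binding proteins, which stabilise fetal messages. *Igf2bp1* was at 4.27 to 66.6 CPM (median 38.2) at P0 and had 1 library with any count at 4 weeks, with 0.163 CPM, so that the ratio of the pooled counts was 1448-fold (95% counting interval 400.3 to 11958). *Igf2bp3* went from 43.9 to 118 CPM (median 55) at P0 to 0 to 0.735 CPM (median 0.0871) at 4 weeks (log2 fold change -8.04, SE 0.77, adjusted p = 4.48e-06), and *Igf2bp2* from 68.6 to 117 CPM (median 96.6) at P0 to 2.25 to 15 CPM (median 7.55) at 4 weeks (log2 fold change -3.46, SE 0.37, adjusted p = 1.25e-05). P0 replicate 6 had the lowest newborn *Igf2bp1*, at 4.27 CPM.

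Other genes with the largest falls were *Agtr2* and *Hif3a*. *Agtr2* encodes the angiotensin II receptor that is abundant in fetal mesenchyme, and it went from 456 to 639 CPM (median 568) at P0 to counts in a single 4-week library, replicate 2 with 2.51 CPM (log2 fold change -9.99, SE 0.83, adjusted p = 1.18e-06). *Hif3a*, a hypoxia-inducible factor subunit, went from 14.1 to 80.2 CPM (median 34.9) at P0 to 0 to 0.888 CPM (median 0) at 4 weeks (log2 fold change -7.63, SE 0.97, adjusted p = 5.26e-05). No 4-week library reached the lowest newborn one for either, which the rule for naming the largest falls required.

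Genes of cell division were lower at 4 weeks. All 36 members were tested, 20 fell and none rose, against 11.5% of all genes that fell, with a median log2 fold change of -1.66. The number that fell was 15 to 20 when single libraries were left out, 10 in DFCK and 11 in TXCK libraries alone. The *Mcm* genes encode the helicase that opens DNA for replication. *Mcm7* was at 79.5 to 128 CPM (median 104) at P0 and 13 to 32.9 CPM (median 21.8) at 4 weeks (log2 fold change -2.10, SE 0.22, adjusted p = 9.64e-06). *Mcm4* went from a median of 102 to 27.4 CPM (log2 fold change -1.71, adjusted p = 4.63e-05) and *Mcm6* from 165 to 73.2 CPM (log2 fold change -1.08, adjusted p = 9.75e-05). *Rrm2*, a subunit of the enzyme that makes deoxynucleotides, went from 63.1 to 138 CPM (median 96.7) at P0 to 4.88 to 31.2 CPM (median 8.01) at 4 weeks (log2 fold change -2.92, SE 0.42, adjusted p = 0.00015). *Rrm2* was not called in single medullary (log2 fold change -0.01) or CapFb1 fibroblasts (-0.28). *Mki67*, the marker most used for cycling cells, was at medians of 5.21 and 2.24 CPM and was not called (adjusted p = 0.702). Single cells gave 18 of 31 members lower and 1 higher in medullary fibroblasts, and 18 of 33 lower in CapFb1 fibroblasts, against 25.9% and 24.1% of all genes lower there. Neither class holds the cells that the authors labelled Pr, a separate label for proliferating cells, which made up 8.401 and 7.33% of the newborn and 1.13 and 0.887% of the 4-week libraries, so these counts and those of *Rrm2* leave such cells out. The RefSeq promoters (GRCm38.p6, 250 bases before to 50 after the start) of 29 of the 36 genes were at hand. The cell cycle element TTTGAA was searched on both strands and was found in 15 of the 29 genes and in 15 of their 30 windows, against 17.9% of all 32851 windows of this length. That comparison rests on the choice of the list and on sequence, and not on the counts of these libraries. The element was in 7 of the 15 matched genes that fell and in 8 of the 14 that were not called.

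Genes of the IGF axis moved in both directions. Of 15 members tested, 3 rose and 4 fell, against 12.9% and 11.5% of all genes. Among those that fell were *Igf2* and *Igf2r*, as given above. *Igf1*, the postnatal growth factor, was at medians of 407 and 447 CPM and was not called (adjusted p = 0.67). Among the binding proteins, which hold IGFs in the tissue fluid, some fell and some rose. *Igfbp3* went from 1599 to 2876 CPM (median 2529.9) at P0 to 77.5 to 146.01 CPM (median 115.3) at 4 weeks (log2 fold change -4.25, SE 0.20, adjusted p = 7.47e-09), whereas *Igfbp7* went from 164 to 458 CPM (median 262) at P0 to 2171 to 4044 CPM (median 2463) at 4 weeks (log2 fold change 3.38, SE 0.26, adjusted p = 5.28e-07). *Igfbp6*, which binds IGF2 with preference, rose from 22.5 to 67.9 CPM (median 44.4) at P0 to 150.1 to 289 CPM (median 176) at 4 weeks (log2 fold change 2.35, SE 0.26, adjusted p = 1.87e-05). *Igfbp2* fell (log2 fold change -4.12).

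Genes of antigen presentation on MHC class I rose. Of the 18 genes, 17 were tested and all 17 rose, against 12.9% of all genes that rose, and the median log2 fold change was 1.64. Leaving out any single library kept the number at 17, and the lowest number under any alternative was 12, in DFCK libraries alone. Only *Nlrc5*, the regulator of the class I genes, was too low to test, at medians of 0 and 1.81 CPM. *H2-K1* (ENSMUSG00000061232), a classical class I heavy chain, was found at 31.9 to 69.8 CPM (median 44.2) at P0 and at 1119 to 1464 CPM (median 1297) at 4 weeks (log2 fold change 4.88, SE 0.19, adjusted p = 1.02e-09). *H2-D1* (ENSMUSG00000073411) went from 396 to 741 CPM (median 422) at P0 to 6707 to 9697 CPM (median 8039) at 4 weeks (log2 fold change 4.16, SE 0.19, adjusted p = 7.23e-09). *B2m* (ENSMUSG00000060802), the light chain shared by all class I molecules, went from 265 to 596 CPM (median 424) at P0 to 4231 to 6903 CPM (median 6197) at 4 weeks (log2 fold change 3.89, SE 0.19, adjusted p = 9.85e-09). The groups were far apart for all of these. The class I heavy chains resemble each other, so reads may be divided between them with error, and this holds most for *H2-Q6*, which had counts in 1 newborn library and 74 to 118 CPM (median 88) at 4 weeks (log2 fold change 9.41, SE 0.73, adjusted p = 6.67e-07).

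The machinery that makes and loads the peptides rose too. *Psmb8*, a catalytic subunit of the immunoproteasome, went from 23 to 58.7 CPM (median 45.4) at P0 to 277 to 304 CPM (median 290.1) at 4 weeks (log2 fold change 2.88, SE 0.18, adjusted p = 9.67e-08). Its partners *Psmb9* and *Psmb10* had log2 fold changes of 3.44 and 1.64, the peptide transporter genes *Tap1* and *Tap2* 1.27 and 2.04, the loading factor *Tapbp* 1.44 and the trimming peptidase *Erap1* 1.21. The general chaperones *Calr* and *Canx* had 1.47 and 0.89. In single cells 16 of 18 members were higher and 1 lower in medullary and 16 of 17 higher and none lower in CapFb1 fibroblasts, against 27.6% and 25.2% of all genes, and *B2m* was at 772 and 607 CPM in newborn and 2676 and 2448 CPM in 4-week medullary fibroblasts.

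Of 8 MHC class II genes tested in sorted cells, 1 rose and none fell, against 12.9% and 11.5% of all genes. This was *H2-DMb1*, which went from 0 to 2.69 CPM (median 0) at P0 to 3.92 to 25.6 CPM (median 11.3) at 4 weeks (log2 fold change 4.33, SE 1.30, adjusted p = 0.025), and its adjusted p was 0.0535 and 0.0584 without 4-week replicates 3 and 6, while 2 genes were called without P0 replicate 6. *Cd74*, the invariant chain of class II, was at 36.1 to 169.8 CPM (median 87.3) and 32.8 to 161.4 CPM (median 125.1) and was not called (adjusted p = 0.581). In single cells 6 of 7 class II genes were higher in medullary and 5 of 6 in CapFb1 fibroblasts, none was lower, and the median log2 fold changes were 2.27 and 2.07, against 27.6 and 25.2% of all genes higher. *Cd74* was among those higher, with log2 fold changes of 2.04 and 2.12 in medullary and CapFb1 fibroblasts. Thymocyte and epithelial marker genes also rose in these single-cell sums. Of 14 thymocyte genes, 8 were higher in medullary and 10 in CapFb1 fibroblasts. Of 5 epithelial genes, 4 were higher in each class, and none of either list was lower. Of 2 myeloid genes, 0 were higher and 1 was lower in each class. The part of RNA from other cells in the class II change was not tested.

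Interferon-stimulated genes rose in part. Of the 43 genes, 42 were found by symbol and 38 tested, with 15 higher and 3 lower, against 12.9% and 11.5% of all genes. Under the alternative fits 7 to 17 were higher and 1 to 4 lower. The median log2 fold change was 0.56. *Bst2*, which tethers virus particles, went from 18.5 to 42.8 CPM (median 30.2) at P0 to 75.9 to 125.3 CPM (median 115.2) at 4 weeks (log2 fold change 1.98, SE 0.24, adjusted p = 3.12e-05), and *Ifi27* from 30.2 to 112.8 CPM (median 50.05) at P0 to 200.1 to 223 CPM (median 211) at 4 weeks (log2 fold change 2.02, SE 0.25, adjusted p = 3.76e-05). *Oas1a*, a sensor of double-stranded RNA, had a log2 fold change of 2.02. *Irf1*, an interferon-induced transcription factor that is also an early response gene, went the other way, from 91.2 to 277 CPM (median 133) at P0 to 16.1 to 31.5 CPM (median 27.4) at 4 weeks (log2 fold change -2.49, SE 0.29, adjusted p = 2.13e-05), and was also lower in single medullary and CapFb1 fibroblasts (-2.44 and -2.65). The number lower was 1 without 4-week replicate 1 or P0 replicate 3. The classical antiviral genes *Ifit1*, *Ifit3* and *Rsad2* were not called, with log2 fold changes of -0.22, 0.64 and 0.54.

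Factors activated by interferons bind a short element in promoters. The core GAAANNGAA was searched on both strands of the RefSeq windows (GRCm38.p6), and it can overlap TTTGAA. Windows of 30 of the 43 genes were at hand. The element was in 20 of these genes and in 58.8% of their 34 windows, against 8.56% of all 32851 windows. That comparison rests on the choice of the list and on sequence, and not on the counts of these libraries. The element was found in 6 of the 9 matched genes that rose, in 2 of the 3 that fell and in 10 of the 16 that were not called, and in 4 of 15 matched genes of MHC class I presentation. The stretches of *B2m* and *Bst2*, which rose, and of *Ifit1*, which was not called, are shown so that the element can be compared between them. They run 5′ to 3′ on the strand of the gene, lie before its start, and have each match, on either strand, in capitals.
*B2m* (chr2:122147518-122147586, plus strand): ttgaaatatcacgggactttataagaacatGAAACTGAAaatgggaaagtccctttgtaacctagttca
*Bst2* (chr8:71537558-71537632, minus strand): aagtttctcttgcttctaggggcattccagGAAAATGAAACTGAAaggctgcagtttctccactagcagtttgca
*Ifit1* (chr19:34640750-34640843, plus strand): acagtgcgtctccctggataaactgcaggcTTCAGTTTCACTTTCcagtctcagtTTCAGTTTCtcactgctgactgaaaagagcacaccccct
*Ifit1* holds the most matches of these and did not change past the test in sorted cells.

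Complement genes rose. Of 23 genes, 13 were tested, 10 rose and none fell, against 12.9% of all genes that rose, with a median log2 fold change of 2.33, and leaving out any library kept the number at 10. *C3* (ENSMUSG00000024164), the central component of the cascade, was found at 51.7 to 327 CPM (median 72.9) at P0 and at 1781 to 3481 CPM (median 2627) at 4 weeks (log2 fold change 4.72, SE 0.48, adjusted p = 7.26e-06), and the highest newborn value belonged to P0 replicate 6, the others being at most 81.2 CPM. *Cfb*, which forms the alternative pathway convertase with C3, went from 3.42 to 11.6 CPM (median 5.54) at P0 to 109 to 134.1 CPM (median 118) at 4 weeks (log2 fold change 4.4, SE 0.31, adjusted p = 2.37e-07). An inhibitor rose as well. *Serping1*, the inhibitor of C1, went from 717 to 1403 CPM (median 949) at P0 to 3854 to 5701 CPM (median 4429.7) at 4 weeks (log2 fold change 2.33, SE 0.16, adjusted p = 2.2e-07). *C7*, *C4b* and *C2* had log2 fold changes of 6.93, 4.17 and 2.91. All C1q chain genes, which macrophages make, were too low to test. Single cells had 13 of 15 members higher and none lower in either class, against 27.6 and 25.2% of all genes higher.

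Of 19 chemokine and scavenger receptor genes tested, 8 rose and 1 fell, against 12.9% and 11.5% of all genes. Without 4-week replicate 4 or P0 replicate 5, 2 fell. *Cxcl14* had counts in 2 of the 6 newborn libraries, at 0 to 7.16 CPM (median 0), and at 123 to 283 CPM (median 196) at 4 weeks (log2 fold change 6.95, SE 0.99, adjusted p = 0.000144). *Cxcl16*, whose receptor CXCR6 is carried by innate-like T cells, went from 14.3 to 39.3 CPM (median 16) at P0 to 53 to 92.7 CPM (median 78.1) at 4 weeks (log2 fold change 2.10, SE 0.27, adjusted p = 6.45e-05), and *Cxcl9*, an interferon-induced ligand, from 3.74 to 11.4 CPM (median 6.51) at P0 to 42.1 to 97.5 CPM (median 63.9) at 4 weeks (log2 fold change 3.35, SE 0.32, adjusted p = 4.34e-06). *Ccl8* had no count at P0 and 3.67 to 6.44 CPM (median 5.13) at 4 weeks, at least 123.99-fold higher by the floor of 3 counts over the group (adjusted p = 6.88e-05). The chemokines that draw thymocytes and dendritic cells, *Ccl19* and *Cxcl12*, had log2 fold changes of 4.82 and 1.71. *Cxcl1*, a neutrophil chemokine and early response gene, fell from 39.3 to 131.3 CPM (median 84.5) at P0 to 4.53 to 23.3 CPM (median 12.9) at 4 weeks (log2 fold change -2.52, SE 0.43, adjusted p = 0.000604). *Cxcl1* was not called in DFCK libraries alone (adjusted p = 0.146), and neither *Cxcl1* nor *Cxcl16* with 4 sorted populations in 1 fit (0.0621 and 0.0683). Every 4-week library was above every newborn one for *Cxcl14*, *Cxcl16* and *Cxcl9*.

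Growth factors for lymphoid and myeloid cells rose for 6 of 12 tested, and 1 fell, against 12.9% and 11.5% of all genes. *Tnfsf13b*, which encodes the B cell survival factor BAFF, went from 0.7 to 10.8 CPM (median 4.17) at P0 to 56 to 108.1 CPM (median 69.9) at 4 weeks (log2 fold change 4.07, SE 0.52, adjusted p = 5.1e-05). *Il34*, a ligand of the macrophage receptor CSF1R, went from 241 to 298 CPM (median 275) at P0 to 587 to 728 CPM (median 666) at 4 weeks (log2 fold change 1.42, SE 0.10, adjusted p = 1.54e-07). *Il33*, the alarmin that acts on innate lymphoid cells, went from 485 to 988 CPM (median 579.9) at P0 to 1237 to 1578 CPM (median 1337) at 4 weeks (log2 fold change 1.19, SE 0.17, adjusted p = 0.000162), and *Kitl*, stem cell factor, from 53.3 to 86.2 CPM (median 65.9) at P0 to 93.7 to 160.3 CPM (median 102) at 4 weeks (log2 fold change 0.93, SE 0.16, adjusted p = 0.000794). None of these overlapped between the ages. *Il6* fell from 5.03 to 23.1 CPM (median 12.7) at P0 to 0.348 to 6.98 CPM (median 1.4) at 4 weeks (log2 fold change -2.49, SE 0.70, adjusted p = 0.0181), but was not called in DFCK or TXCK libraries alone or with 4 sorted populations in 1 fit (adjusted p = 0.142, 0.134 and 0.128). *Il33* was not called in that shared fit either (adjusted p = 0.344). *Il7*, the thymocyte growth factor, was at medians of 4.28 and 16 CPM and was not called (adjusted p = 0.299).

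In the lymphotoxin and NF-kB list, 7 of 21 rose and 2 fell, against 12.9% and 11.5% of all genes. Under the alternative fits 2 to 8 rose and 0 to 3 fell. *Icam1*, an adhesion molecule, went from 27.6 to 106.7 CPM (median 59.8) at P0 to 135.99 to 212 CPM (median 179.1) at 4 weeks (log2 fold change 1.61, SE 0.25, adjusted p = 0.000245), *Tnfrsf1b*, a TNF receptor, from 1.27 to 19.6 CPM (median 8.68) at P0 to 24.7 to 55.4 CPM (median 39.6) at 4 weeks (log2 fold change 2.33, SE 0.53, adjusted p = 0.00523), and *Vcam1* from 190.0 to 369 CPM (median 269.6) at P0 to 311 to 495 CPM (median 408) at 4 weeks (log2 fold change 0.75, SE 0.16, adjusted p = 0.00362). *Nfkbia*, the inhibitor that NF-kB induces and an early response gene, fell from 389.6 to 813 CPM (median 619) at P0 to 250.005 to 363 CPM (median 304) at 4 weeks (log2 fold change -0.84, SE 0.16, adjusted p = 0.00127). In DFCK libraries alone *Vcam1* and *Nfkbia* were not called (adjusted p = 0.244 and 0.0972), and *Tnfrsf1b* was not called in TXCK libraries alone (0.120) or with 4 sorted populations in 1 fit (0.0607). The level of *Icam1* moved in the other direction in single cells, as given below.

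**Figure D3:**
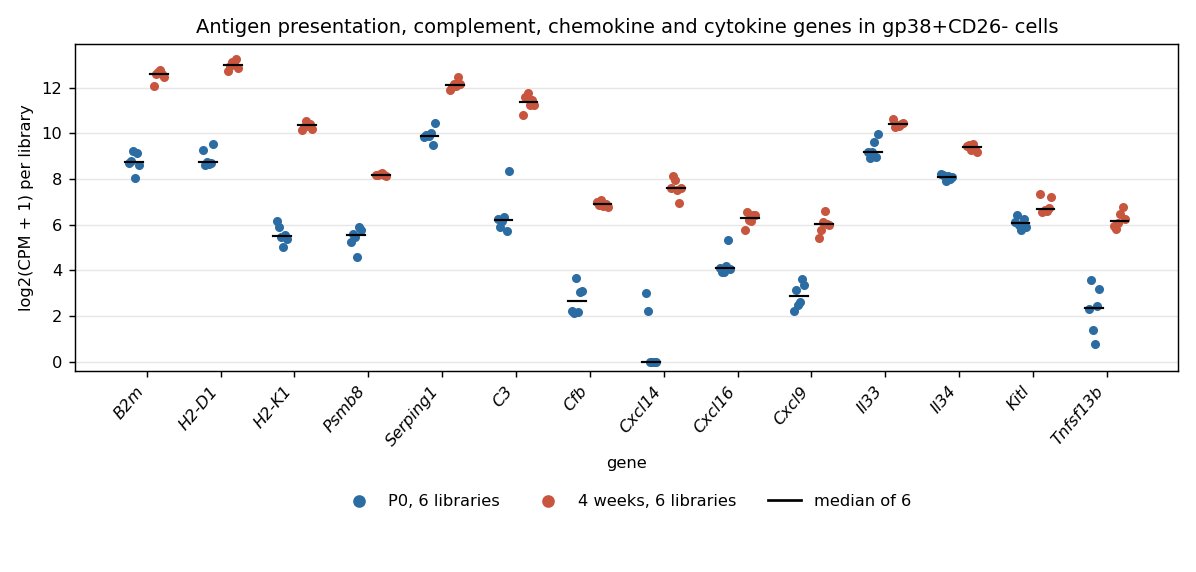
Level of named antigen presentation, complement, chemokine and cytokine genes in each gp38+CD26- library, as log2(CPM + 1). Each point is 1 library (6 at P0 in blue, 6 at 4 weeks in red) and the bar is the median. For every gene shown the 4-week libraries lie above the newborn ones without overlap. They were picked from the called members with the smallest p of each list, and only genes that rose are drawn. The named genes *Cxcl1* and *Il6* fell and are not shown. Of all genes tested, 17.4% did not overlap between the ages.

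Of 21 collagen chain genes tested in sorted cells, 8 fell, 2 rose and 11 were not called. Of all genes, 11.5% fell and 12.9% rose. The median log2 fold change of the chain genes was -0.46. *Col5a1*, a chain that sets fibril diameter, went from 362 to 574 CPM (median 453) at P0 to 128 to 183 CPM (median 156.4) at 4 weeks (log2 fold change -1.46, SE 0.15, adjusted p = 7.78e-06). *Col11a1*, the cartilage-type fibrillar chain, went from 3.2 to 39 CPM (median 15.8) at P0 to no count at 4 weeks, at least 426-fold lower, and *Col26a1*, a marker of medullary fibroblasts, from 100.9 to 202 CPM (median 147) at P0 to 7.6 to 40.7 CPM (median 18.7) at 4 weeks (log2 fold change -2.53, SE 0.37, adjusted p = 0.000176). *Col6a5*, a microfibril chain, rose from 32.7 to 71.7 CPM (median 57.2) at P0 to 135.8 to 223 CPM (median 169) at 4 weeks (log2 fold change 1.82, SE 0.22, adjusted p = 4.14e-05). *Col1a1*, a chain of type I collagen, was at 11364 to 22618 CPM (median 17624) at P0 and 7465 to 9936 CPM (median 9194) at 4 weeks (log2 fold change -0.80, SE 0.15, adjusted p = 0.00108). *Col1a2* and *Col3a1*, which like *Col1a1* are named here after their values were seen, had log2 fold changes of -0.57 and -0.46. In single cells these 3 genes were not called lower. Their log2 fold changes were 0.14, 0.35 and 0.14 in medullary fibroblasts (adjusted p = 0.3, 0.0102 and 0.246) and 0.54, 0.75 and 0.64 in CapFb1 fibroblasts (adjusted p = 0.00817, 0.000573 and 0.001). The difference between the 2 kinds of data was not tested. Of all chain genes tested, 10 were higher and 6 lower among 25 in medullary, and 9 were higher and 6 lower among 24 in CapFb1 fibroblasts. The shares lower (24 and 25%) were near those of all genes (25.9 and 24.1%), and the shares higher were 40.0 and 37.5% against 27.6 and 25.2%. In sorted cells the number of chain genes that rose was 1 within either prefix and 0 when 4 sorted populations shared 1 fit, and the number that fell was 6 within either prefix and 3 in that shared fit, where *Col5a1* and *Col6a5* were not called (adjusted p = 0.166 and 0.157).

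Among the 25 genes of collagen processing, 7 rose and 4 fell, against 12.9% and 11.5% of all genes. *Adamts2*, which cleaves the amino propeptide of procollagen, went from 174.7 to 386 CPM (median 288) at P0 to 537 to 785 CPM (median 616) at 4 weeks (log2 fold change 1.31, SE 0.19, adjusted p = 0.000144), and *Tgm2*, a crosslinking transglutaminase, from 59 to 102 CPM (median 83.5) at P0 to 169 to 245 CPM (median 209.9) at 4 weeks (log2 fold change 1.47, SE 0.15, adjusted p = 7.25e-06). *Pcolce2*, an enhancer of procollagen cleavage, had no count at P0 and 2.52 to 18.2 CPM (median 4.57) at 4 weeks, at least 186.6-fold higher. *P3h1*, a prolyl hydroxylase, fell from 365 to 489 CPM (median 459) at P0 to 193 to 236 CPM (median 207) at 4 weeks (log2 fold change -0.96, SE 0.11, adjusted p = 2.13e-05). In the basement membrane list 4 of 18 rose and 5 fell, against 12.9% and 11.5% of all genes. Without 4-week replicate 2 or 3, 2 were higher. The linker proteins nidogen 1 and 2 fell, *Nid1* from 927 to 1302 CPM (median 1186) at P0 to 405 to 650.3 CPM (median 519.7) at 4 weeks (log2 fold change -1.02, SE 0.13, adjusted p = 5.35e-05) and *Nid2* from 686 to 964 CPM (median 850.2) at P0 to 144.2 to 309 CPM (median 256) at 4 weeks (log2 fold change -1.64, SE 0.16, adjusted p = 4.48e-06). *Agrn*, a heparan sulphate proteoglycan, went from 69.97 to 17.6 CPM in the median (log2 fold change -1.78, adjusted p = 0.000894), and *Col4a5*, a collagen IV chain, rose from 9.53 to 43.3 CPM (log2 fold change 1.85, adjusted p = 0.0009). With 4 sorted populations in 1 fit, 1 basement membrane gene was higher and 3 were lower, and *Adamts2* was not called (adjusted p = 0.158). Within the prefixes 0 (DFCK) and 1 (TXCK) were higher and 4 lower. In single cells 12 of 20 basement membrane genes were higher and 2 lower in medullary, and 14 of 20 were higher and 3 lower in CapFb1 fibroblasts, against 27.6 and 25.2% of all genes higher, and the difference from the sorted cells was not tested.

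Enzymes that cut the matrix and their inhibitors were split, with 6 of 23 higher and 7 lower, against 12.9% and 11.5% of all genes. *Mmp3* (stromelysin 1) was found at 0 to 20.1 CPM (median 8.08) at P0 and at 487 to 1039 CPM (median 631) at 4 weeks (log2 fold change 6.27, SE 0.64, adjusted p = 7.69e-06). *Mmp23* went from 41.2 to 114 CPM (median 69.9) at P0 to 183.995 to 322 CPM (median 225) at 4 weeks (log2 fold change 1.78, SE 0.22, adjusted p = 4.63e-05). *Timp3*, the inhibitor bound to the matrix, went from 1509 to 3568 CPM (median 1925) at P0 to 208 to 266 CPM (median 255) at 4 weeks (log2 fold change -3.08, SE 0.21, adjusted p = 1.5e-07), and *Adamts1*, an aggrecanase and early response gene, from 336 to 661 CPM (median 412) at P0 to 43.4 to 103.2 CPM (median 62.1) at 4 weeks (log2 fold change -2.63, SE 0.26, adjusted p = 5.22e-06). *Mmp3* rose and *Timp3* fell with no overlap between the libraries of the 2 ages, but the protease *Adamts1* fell as well. These named genes do not give a direction of the list. *Timp3* was called higher in single CapFb1 fibroblasts, as given below.

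Markers of the fibroblast subtypes were followed with 2 lists drawn from genes that the study named on the single cells of this series, so the lists are not independent of those cells. Of the 13 medullary markers 9 rose and 3 fell, against 12.9% and 11.5% of all genes, with a median log2 fold change of 1.18. Under the alternative fits 5 to 9 rose and 2 to 3 fell. *Sod3*, extracellular superoxide dismutase, went from 310.4 to 449 CPM (median 384) at P0 to 4061 to 6026 CPM (median 4916) at 4 weeks (log2 fold change 3.84, SE 0.14, adjusted p = 1.02e-09). *Serpine2*, a protease inhibitor, went from 5097 to 8127 CPM (median 7468) at P0 to 13856 to 15426 CPM (median 14352) at 4 weeks (log2 fold change 1.18, SE 0.11, adjusted p = 3.39e-06). *Tmem176a* and *Tmem176b*, neighbouring genes of membrane proteins, had log2 fold changes of 2.27 and 1.84. *Sele*, an adhesion receptor, fell from 53.4 to 162 CPM (median 129) at P0 to 2.31 to 16.4 CPM (median 9.41) at 4 weeks (log2 fold change -3.50, SE 0.41, adjusted p = 2.77e-05). Of the 25 capsular markers 8 rose and 7 fell, against 12.9% and 11.5% of all genes, with a median of 0.19. The small proteoglycans rose, *Dcn* from 6612 to 8136 CPM (median 7623) at P0 to 16489.7 to 21182 CPM (median 18478) at 4 weeks (log2 fold change 1.46, SE 0.10, adjusted p = 1.5e-07) and *Bgn* from 875 to 1204 CPM (median 1035) at P0 to 2758 to 3754 CPM (median 3279.9) at 4 weeks (log2 fold change 1.79, SE 0.11, adjusted p = 5.31e-08), as did *Cpxm1*, a carboxypeptidase-like gene (log2 fold change 2.97, adjusted p = 1.5e-07). *Dcn* was not called with 4 sorted populations in 1 fit (adjusted p = 0.252). *Itm2a*, a membrane protein gene, fell from 4747 to 7522 CPM (median 6521) at P0 to 295 to 607 CPM (median 372) at 4 weeks (log2 fold change -3.86, SE 0.19, adjusted p = 8.77e-09).

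In the BMP and TGF-beta list 9 of 25 rose and 4 fell, against the 24.3% of all genes that were called in either direction. Under the alternative fits 4 to 11 rose and 1 to 4 fell. *Ltbp1*, which stores latent TGF-beta in the matrix, went from 118 to 237 CPM (median 183.8) at P0 to 2500.2 to 3481 CPM (median 2939.9) at 4 weeks (log2 fold change 4.14, SE 0.19, adjusted p = 7.23e-09), and *Ltbp4* from 328 to 521 CPM (median 443) at P0 to 773 to 1411 CPM (median 1056) at 4 weeks (log2 fold change 1.47, SE 0.18, adjusted p = 3.15e-05). *Nbl1*, a BMP antagonist, went from 263 to 456 CPM (median 407) at P0 to 1344 to 2105 CPM (median 1484) at 4 weeks (log2 fold change 2.24, SE 0.17, adjusted p = 4.14e-07). *Gdf10*, a ligand of the BMP family, went down from 494 to 787 CPM (median 546) at P0 to 58.7 to 140.3 CPM (median 81.5) at 4 weeks (log2 fold change -2.67, SE 0.20, adjusted p = 5.51e-07). These genes were picked by p and by direction and do not stand for the whole list. *Gdf10* was called higher in single CapFb1 fibroblasts, as given below.

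In the FGF list 6 of 14 fell and 1 rose, against 11.5% and 12.9% of all genes. *Fgf7*, a growth factor for thymic epithelium, went from 32.8 to 52.4 CPM (median 49.8) at P0 to 6.62 to 20.6 CPM (median 8.43) at 4 weeks (log2 fold change -2.06, SE 0.30, adjusted p = 0.000166), and the related *Fgf10* had a log2 fold change of -0.92. *Fgf1* rose from 21.2 to 37.4 CPM (median 28.7) at P0 to 104.5 to 162 CPM (median 107.8) at 4 weeks (log2 fold change 2.19, SE 0.18, adjusted p = 1.16e-06). The feedback inhibitors *Dusp6* and *Spry4* fell from medians of 343 to 109 CPM (log2 fold change -1.60, adjusted p = 0.000225) and 205 to 75.4 CPM (log2 fold change -1.31, adjusted p = 0.000213). None of the 17 Wnt genes tested rose (1 did without any 1 of 7 libraries) and 3 fell, namely *Dkk3* from 399 to 126.8 CPM in the median, *Tcf7l2* from 822 to 348 CPM and *Sfrp1* from 293 to 145 CPM (adjusted p = 0.00015, 0.000688 and 0.0328). *Sfrp1* lost its call without any 1 of 9 of the 12 libraries, with adjusted p between 0.0549 and 0.0746. *Tcf7l2* was not called in DFCK libraries alone (adjusted p = 0.183), nor *Sfrp1* in TXCK libraries alone (0.200). The share of Wnt genes called was below that of all genes (24.3%). With 4 sorted populations in 1 fit, *Fgf7*, *Fgf1*, *Dkk3* and *Sfrp1* were not called (adjusted p = 0.111, 0.0682, 0.266 and 0.493), and 1 Wnt gene was lower. In single cells 6 of 20 Wnt genes were higher and 8 lower in medullary, and 11 of 18 higher and 2 lower in CapFb1 fibroblasts. Of 18 FGF genes in each class, 5 were higher and 4 lower in medullary, and 6 higher and 3 lower in CapFb1 fibroblasts. All genes gave 27.6 and 25.2% higher, and 25.9 and 24.1% lower. The difference from the sorted cells was not tested.

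In the retinoic acid and hedgehog list 1 of 19 rose (2 without P0 replicate 6) and 4 fell. *Aldh1a2*, the enzyme that makes retinoic acid, went from 25.9 to 67.2 CPM (median 38.2) at P0 to 2.0 to 14.9 CPM (median 6.26) at 4 weeks (log2 fold change -2.28, SE 0.45, adjusted p = 0.00189), and *Rarb*, a retinoic acid receptor and target, from 80.3 to 232 CPM (median 153) at P0 to 14.7 to 57.5 CPM (median 28.1) at 4 weeks (log2 fold change -2.11, SE 0.35, adjusted p = 0.000489). *Boc*, a hedgehog co-receptor, fell (log2 fold change -1.07, adjusted p = 0.00108). The share of this list that was called was near the 24.3% of all genes. With 4 sorted populations in 1 fit none of the list was called lower, and *Aldh1a2*, *Boc* and *Rarb* had adjusted p of 0.217, 0.516 and 0.109.

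Mesenchymal transcription factors were found lower in 9 (24.3%) and higher in 4 (10.8%) of 37 tested, against 11.5% and 12.9% of all genes, and without 4-week replicate 2 or 3 only 1 was higher. *Meox1*, a homeobox gene, rose from 18.8 to 110.3 CPM (median 82.2) at P0 to 395 to 504 CPM (median 463) at 4 weeks (log2 fold change 2.80, SE 0.35, adjusted p = 4.18e-05). *Osr2* and *Ebf1* fell from medians of 183 to 49.3 and 668 to 256 CPM (adjusted p = 7.2e-07 and 7.1e-05). The tissue identity genes *Tcf21*, *Prrx1* and *Twist2* were not called, with log2 fold changes of 0.00, -0.13 and -0.05.

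Of 13 glucocorticoid-responsive genes 6 fell and 1 rose (2 without P0 replicate 5), against 11.5% and 12.9% of all genes. In single cells 6 of 13 were higher and 5 lower in medullary, and 4 higher and 7 lower in CapFb1 fibroblasts. All genes gave 27.6 and 25.2% higher, and 25.9 and 24.1% lower there. *Hsd11b1*, which activates glucocorticoids inside the cell, rose from 76 to 203 CPM (median 102.5) at P0 to 1375 to 2492 CPM (median 1683) at 4 weeks (log2 fold change 4.10, SE 0.27, adjusted p = 1.28e-07). *Per1*, *Cebpd* and *Sgk1*, which are also early response genes, fell from medians of 54.4 to 3.98, 607 to 135.5 and 183 to 76.7 CPM (adjusted p = 0.000188, 0.00014 and 0.00108). Among lipid genes 5 of 18 rose and 3 fell, against 12.9% and 11.5% of all genes, and 3 rose without 4-week replicate 2 or 3. *Apoe* went from 164 to 651 CPM (median 264) at P0 to 1952 to 4376 CPM (median 2939) at 4 weeks (log2 fold change 3.40, SE 0.36, adjusted p = 9.7e-06) and *Apod* from 108.3 to 232 CPM (median 165) at P0 to 724 to 1976 CPM (median 1181) at 4 weeks (log2 fold change 3.16, SE 0.25, adjusted p = 8.02e-07). *Scd1*, a fatty acid desaturase, rose from 42 to 172.8 CPM in the median (adjusted p = 0.000193), and *Ebf2*, a factor of adipocyte precursors, fell from 150.1 to 61.9 CPM (adjusted p = 0.00444). Neither was called with 4 sorted populations in 1 fit (adjusted p = 0.184 and 0.315). The adipocyte genes *Adipoq* and *Plin1* were too low to test.

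The remaining genes with the largest rises have varied roles. *Ccn5*, a matricellular gene, had no count at P0 and 19.2 to 97.1 CPM (median 35.3) at 4 weeks, at least 1142-fold higher (adjusted p = 2.5e-05). *Casp1*, the protease of the inflammasome, also had no newborn count and 6.94 to 33.3 CPM (median 21) at 4 weeks, at least 465-fold higher (adjusted p = 2.76e-05). *Car4*, a membrane carbonic anhydrase, had 1 count in 1 newborn library and 30.7 to 66.6 CPM (median 50.2) at 4 weeks, a ratio of the pooled counts of 3416-fold (95% counting interval 613 to 134960.0). *Ltc4s*, leukotriene C4 synthase, went from 0.61 to 3.09 CPM (median 1.31) at P0 to 266 to 442 CPM (median 331) at 4 weeks (log2 fold change 7.93, SE 0.37, adjusted p = 7.23e-09), and *Reg3g*, an antimicrobial lectin, from 0 to 0.582 CPM (median 0) at P0 to 23 to 48.2 CPM (median 30.03) at 4 weeks (log2 fold change 8.26, SE 0.88, adjusted p = 1.17e-05). All of these were also higher in single medullary fibroblasts, and the log2 fold changes of *Ltc4s* and *Reg3g* there were 4.43 and 4.93.

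The single-cell libraries were used to ask whether the change of the sorted population was also found within medullary and within CapFb1 fibroblasts. Both are pooled classes, MedFb of 4 and CapFb1 of 3 of the authors' labels. UMIs (unique molecular identifiers, 1 for each RNA molecule counted) were summed per library over the cells of MedFb (887 and 1587 cells at P0, 633 and 762 at 4 weeks) or CapFb1 (1014 and 1283 at P0, 340 and 523 at 4 weeks), and any pair of libraries had at most 7 cell barcodes in common. Of all genes tested, 53.5% were called in medullary and 49.3% in CapFb1 fibroblasts. Of the genes higher in sorted cells and tested in both, 985 of 1534 (64.2%) were also higher in medullary fibroblasts, which is 30.7% of the 3211 genes higher there, and 12.52% were lower there. Of those lower in sorted cells, 839 of 1336 (62.8%) were also lower in medullary fibroblasts, 29.6% of the 2835 lower there, and 4.19% were higher there. For CapFb1 the shared calls were 907 of 1509 higher (60.1%, and 31.3% of 2901) and 755 of 1333 lower (56.6%, and 28.6% of 2642), with 9.54% and 6.98% called in the opposite direction. Any gene tested in both was called higher in medullary fibroblasts with a share of 28.6% and lower with 25.3%, and in CapFb1 fibroblasts with 26.1% and 23.8%. The share of medullary cells among MedFb and CapFb1 cells was 46.7 and 55.3% in the newborn and 65.1 and 59.3% in the 4-week libraries, and the part of this shift in the sorted population was not tested. The mix within a class also moved with age. The label CapFb1b held 628 of 1014 and 818 of 1283 CapFb1 cells in the newborn and 150 of 340 and 218 of 523 in the 4-week libraries, and its part in the changes of the pooled cells was not tested.

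Among the named genes called in sorted cells, 106 were called in the same direction in medullary fibroblasts, 8 were not called and 1, *Icam1*, was called in the opposite direction (-0.47, adjusted p = 0.000432). In CapFb1 fibroblasts 92 had the same direction, 10 were not called and 11 had the opposite direction. Among the 11 were *Boc*, *Cxcl9*, *Fgf7*, *Gdf10*, *Icam1*, *Nid1*, *Sfrp1*, *Tcf7l2*, *Timp3* and *Vcam1*. The named genes were picked largely by p or by size of change in sorted cells. Of all genes higher or lower in sorted cells, 64.2 and 62.8% had the same call in medullary fibroblasts. In CapFb1 fibroblasts these shares were 60.1 and 56.6%. *Gdf10* was at 136.7 and 129.7 CPM in newborn and 185.4 and 219 CPM in 4-week CapFb1 fibroblasts (log2 fold change 0.62, adjusted p = 0.000698) but at 114 and 145 CPM and 24.8 and 36 CPM in medullary fibroblasts (-2.12, adjusted p = 8.91e-06). *Timp3* showed the same split, with 0.62 in CapFb1 and -1.28 in medullary fibroblasts. *Sfrp1* had 1.85 in CapFb1 and -0.67 in medullary fibroblasts. The difference between the classes was not tested. Of the red cell genes, *Hbb-bs* was also higher in both classes at 4 weeks, with log2 fold changes of 4.18 and 4.68. Of the 22 immediate early and heat shock genes, 17 were lower and 4 higher in medullary, and 15 lower and 4 higher in CapFb1 fibroblasts. All genes gave 25.9 and 24.1% lower, and 27.6 and 25.2% higher. The part of handling in the single-cell changes was not tested.

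**Figure D4:**
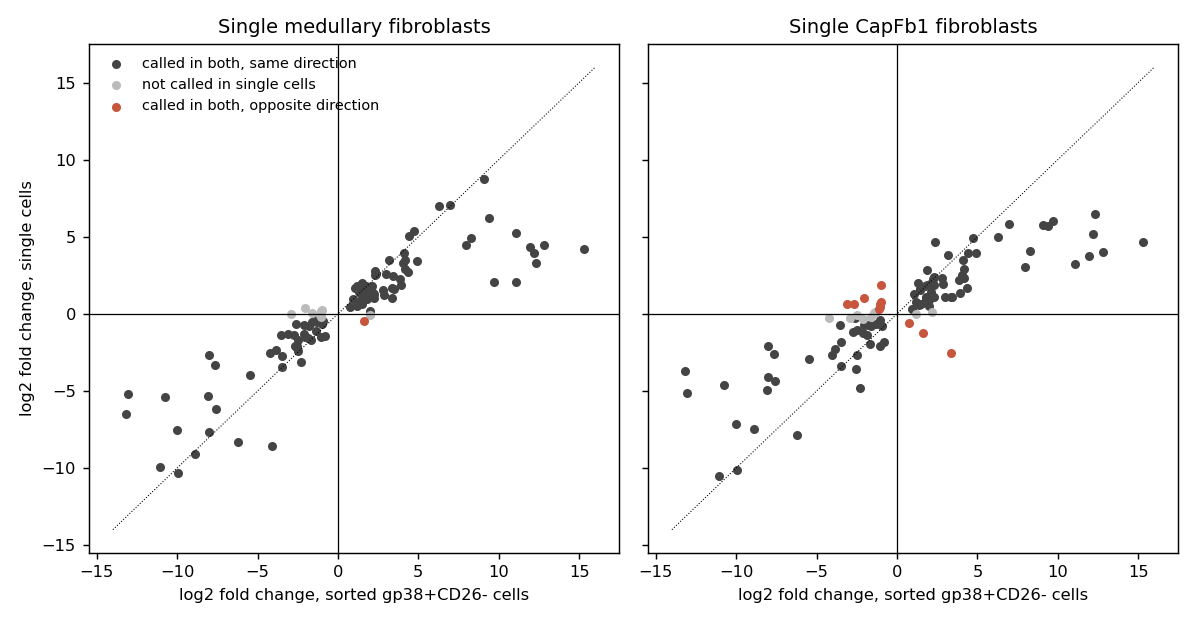
Log2 fold change (4 weeks against P0) of the named genes called in sorted gp38+CD26- cells (horizontal axis) against their log2 fold change in single medullary (left) and CapFb1 fibroblasts (right). Each point is 1 gene, the dotted line marks equal change, and fitted values of genes without counts at 1 age depend on the prior count. In the left panel 106 genes are called in the same direction and 1 in the opposite, and in the right panel 92 and 11. The genes were picked largely by p or by size of change in sorted cells. Of all genes higher or lower in sorted cells, 64.2 and 62.8% had the same call in medullary fibroblasts. In CapFb1 fibroblasts these shares were 60.1 and 56.6%.

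Whether the change with age differed from that of gp38+CD26+ fibroblasts, the closest sorted population, was tested directly. Of the 12 gp38+CD26+ libraries, 4-week replicate 2 held only 25702 counts and was left out. Of 14066 genes, 702 (4.99%) differed, 451 with the more positive and 251 with the more negative change in gp38+CD26- cells. With the shallow library kept, 318 and 145 genes differed. When libraries at the same position in the running title numbers of each population shared a term, in a fit chosen after seeing the data, 328 genes differed. The labels do not say whether such libraries share a source.

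Several secreted genes and *B2m* had the more positive change in gp38+CD26- cells. Of the 18 genes of the MHC class I list, 1 (*B2m*) had the more positive and 1 (*Tapbp*) the more negative change. Of all 14066 genes, 451 and 251 did. *Apoe* had a log2 fold change of 3.40 in gp38+CD26- and -0.48 in gp38+CD26+ cells, a difference of 3.88 (SE 0.53, adjusted p = 0.000124). *Apod* had 3.16 in gp38+CD26- cells and a value within its SE of 0.33 from 0 in gp38+CD26+ cells (difference 3.16, adjusted p = 0.000138), and *B2m* 3.89 and 1.63 (difference 2.26, adjusted p = 1.8e-06). *Serpine2* had 1.18 in gp38+CD26- and -0.96 in gp38+CD26+ cells (adjusted p of the difference 0.0011). Of the 13 medullary markers 5 had a more positive change, against 451 of all 14066 genes. They were *Serpine2*, *Sod3*, *Tmem176a*, *Tmem176b* and *Sele*, the last of which fell in gp38+CD26- cells. *Timp3* was opposite in sign, -3.08 in gp38+CD26- and 1.79 in gp38+CD26+ cells (difference -4.88, SE 0.37, adjusted p = 1.93e-08). *Aldh1a2* also had opposite signs, -2.28 and 3.39 (adjusted p = 0.00186), as did *Nid1* with -1.02 and 0.62 (adjusted p = 9.81e-05). *Kitl* was 0.93 in gp38+CD26- and -1.05 in gp38+CD26+ cells (adjusted p = 0.014).

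*Mest*, *Peg3* and *H19* had the more negative change in gp38+CD26- cells. The difference was called for 6 of the 19 members of the imprinted list tested, against 251 of all 14066 genes with the more negative change. For *Mest*, with -7.57 and -5.04, the difference was -2.53 (adjusted p = 0.000262). *Peg3* had -5.49 and -3.53 (adjusted p = 0.000749), and *H19* -8.03 and -3.78 (adjusted p = 0.00376). *Dlk1* had -8.89 and -9.03, a difference of 0.13 (SE 1.05) that was not called. Of the class I heavy chains, *H2-K1* and *H2-D1* had differences of 0.46 (SE 0.30) and -0.17 (SE 0.62), neither called.

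The largest differences belonged to genes near 0 in some group, so they are given as levels. *Mrgprg* reached 73.1 to 588 CPM (median 233) in gp38+CD26+ cells at 4 weeks and at most 1.2 CPM in any gp38+CD26- library. *Col8a1*, a short-chain collagen, was at 75.8 to 318 CPM (median 268) there and at most 21.8 CPM in gp38+CD26- cells. *Car8*, *Faim2* and *Lmntd1* were at 14.5 to 30.7 CPM (median 21.4), 8.27 to 57.5 CPM (median 18.4) and 33.1 to 58.7 CPM (median 49.6) in gp38+CD26+ cells at that age, while in gp38+CD26- cells at 4 weeks *Faim2* and *Lmntd1* had no count and *Car8* had 0.184 CPM in 1 library. At P0, gp38+CD26- libraries did hold these genes, with *Car8* at 3.86 CPM in 1, *Faim2* at 4.65 and 8.30 CPM in 2 and *Lmntd1* at up to 14.4 CPM in 4 of 6, so the fitted differences rest on these counts as well. On the other side, *Car4*, *Slc16a12*, *Pde1b* and *Casp1* had medians of 50.2, 54.9, 51.2 and 21 CPM in gp38+CD26- cells at 4 weeks, and *Car4* and *Casp1* were at 0 to 5.48 CPM (median 1.79) and 2.83 to 16.4 CPM (median 6.69) in gp38+CD26+ cells. *Slc16a12* and *Pde1b* had no count in gp38+CD26+ cells at that age. With the term for the title numbers, *Car4*, *Car8*, *Faim2*, *Lmntd1*, *Slc16a12* and *Pde1b* were not called (adjusted p between 0.0717 and 0.399). *Agt*, angiotensinogen, went from 81.2 to 183.6 CPM (median 114.7) at P0 to 0 to 27.4 CPM (median 3.39) at 4 weeks in gp38+CD26- cells (log2 fold change -4.08, SE 0.80, adjusted p = 0.00176) and from 34.9 to 64.1 CPM (median 48.3) to no count in gp38+CD26+ cells.

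**Figure D5:**
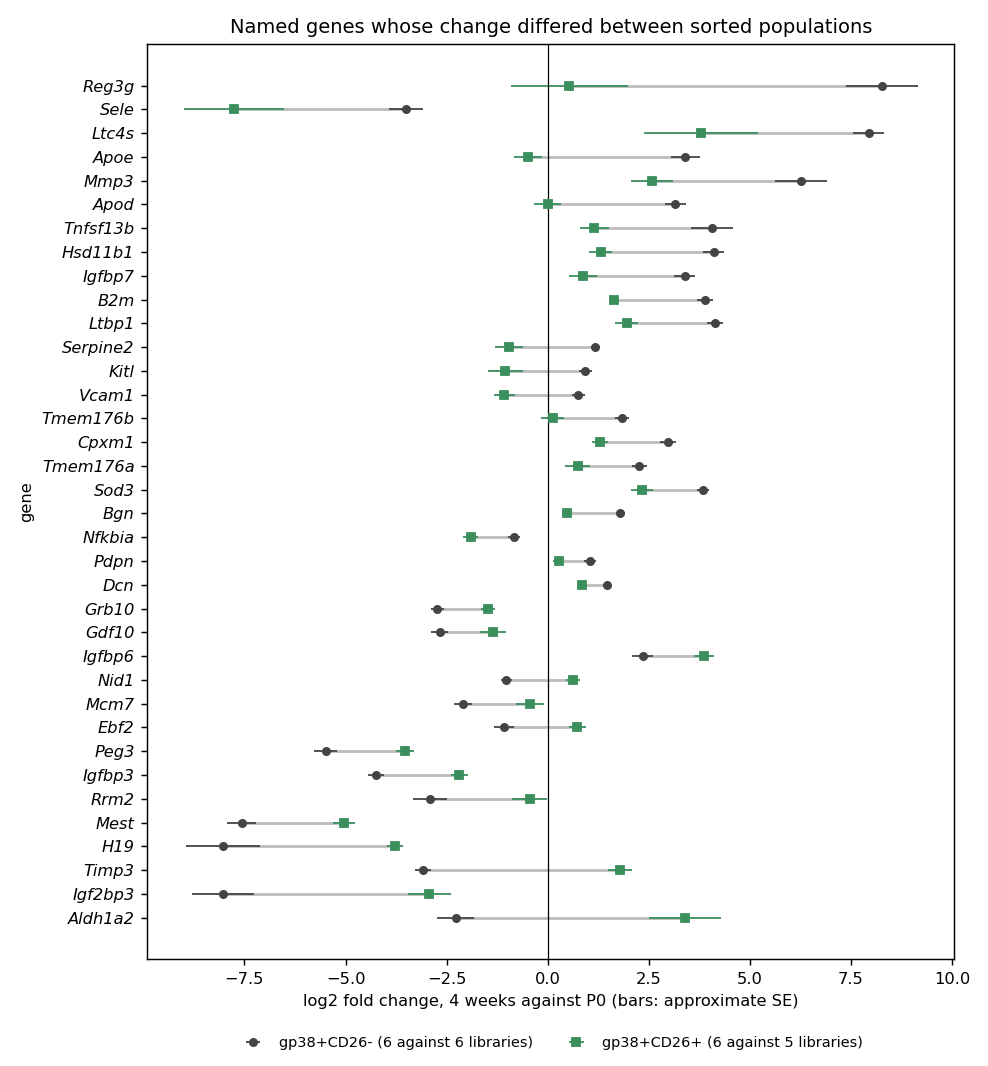
Log2 fold change from P0 to 4 weeks in gp38+CD26- (dots) and gp38+CD26+ cells (squares) for 36 named genes whose change differed at an adjusted p under 0.05, with bars of 1 approximate standard error. Genes without a count in a group are not drawn. *Timp3*, *Nid1*, *Ebf2* and *Aldh1a2* lie on opposite sides of 0 with the dot to the left, and *Kitl*, *Vcam1*, *Serpine2* and *Apoe* with the dot to the right.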

How the data were processed

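RNA of sorted CD45- thymic stromal cells was sequenced by the authors with an ultra-low-input protocol, and the deposited values are raw counts per gene, 1 column per library. The submitters' processing notes list STAR 2.5.3a, HTSeq and Cell Ranger 3.1.0 with mm10 and GRCh38, without saying which served which data, and whether counting used strand is not given in the sources used here, so overlapping and antisense genes could not be told apart. Single-cell files hold deposited UMI counts with the authors' cell labels. UMIs were summed per library over MedFb (4 pooled labels) and CapFb1 (3 pooled labels), and no doublet filter was added.

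Only rows with an Ensembl ID entered library totals (39179 rows). Entries that name no gene made up 10.6 to 13.9% of the column totals at P0 and 9.25 to 9.97% at 4 weeks, and the 20 most abundant genes took 11.9 to 14.3% and 15.5 to 18.4% of the counts. Symbols of 37607 IDs and coordinates came from GENCODE vM21 (GRCm38). Counts were filtered with filterByExpr, scaled by TMM and tested with the quasi-likelihood F-test of edgeR 4.0.16 in R 4.3.3, with Benjamini-Hochberg adjustment over all genes tested and a threshold of 0.05. The 12 gp38+CD26- libraries alone entered the comparison of ages, and 23 libraries the test of the difference between populations. Standard errors are approximate, as the absolute log2 fold change divided by the square root of F. The bound for a gene without counts in a group takes 3 counts over that group, and such bounds and counting intervals cover counting error only. Alternatives were RLE size factors, DESeq2 1.42.0, no filter, the title prefix as a term or each prefix alone, 4 populations in 1 fit, leaving out each library and, chosen after seeing the data, a block by library number for the difference between populations. The tests were also run on simulated counts in which few genes were changed. Here 24.3% of genes were called, so that setting does not check the scaling of these data.

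The sorted populations and gene lists were chosen with earlier results of these data known, and the medullary and capsular lists hold genes that the study named on single cells of this series. Named genes were the 10 largest rises and 10 largest falls among called genes whose CPM did not overlap between the ages and averaged at least 20 in the higher group, in each biological list up to 4 called members with the smallest p and the first called member of the opposite direction, the genes of the sort, and 5 differences from gp38+CD26+ cells in each direction; members named beside these within a list were chosen after their values were seen. Results for some genes are not reported here.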

Additional observations from a re-analysis of the deposited data

Results flagged for a closer look

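For the named genes, 246 groups of 6 libraries were examined on the log2(CPM + 1) scale for a highest or lowest library set apart from the other 5, and 28 values were found. Chance alone gives such a value in about 1 in 20 groups of untied values. That rate does not apply to 14 of the 28, in which the other 5 libraries were all at 0 and any count is set apart. At 4 weeks, replicate 1 had 6 of them. The red cell genes were at their lowest there, with *Hba-a1* 10.3 CPM (others 313 to 1012), *Hba-a2* 5.4 CPM (others 171 to 556), *Hbb-bs* 9.91 CPM (others 508 to 1469) and *Hbb-bt* 1.85 CPM (others 45.9 to 166.5), and 2 genes that fell with age were at their highest, with *Hif3a* 0.888 CPM (others 0 to 0.129) and *Plagl1* 2.44 CPM (others 0). In 4-week replicate 2 the highest value was set apart for *Agtr2* 2.51 CPM (others 0). In 4-week replicate 4 the highest value was set apart for *Igf2bp1* 0.163 CPM (others 0). In 4-week replicate 5 the highest value was set apart for *Ptprc* 3.72 CPM (others 0). In 4-week replicate 6 the highest values were set apart for *Car8* 0.184 CPM (others 0) and *Fgf7* 20.6 CPM (others 6.62 to 9.47). In P0 replicate 1 the highest value was set apart for *H2-Q6* 0.832 CPM (others 0). In P0 replicate 2 the highest values were set apart for *Epcam* 0.0727 CPM (others 0) and *Reg3g* 0.582 CPM (others 0). In P0 replicate 3 the highest value was set apart for *Sfrp1* 345 CPM (others 282 to 299). In P0 replicate 4 the highest values were set apart for *Car4* 0.1000 CPM (others 0) and *Mrgprg* 1.2 CPM (others 0) and the lowest for *Mmp3* 0 CPM (others 6.64 to 20.1). In P0 replicate 5 the highest values were set apart for *Car8* 3.86 CPM (others 0), *Cxcl16* 39.3 CPM (others 14.3 to 17.6), *Hbb-bs* 0.0965 CPM (others 0) and *Mest* 4505 CPM (others 2904 to 3352) and the lowest for *Tcf7l2* 443 CPM (others 790.0 to 1017). In P0 replicate 6 the highest values were set apart for *C3* 327 CPM (others 51.7 to 81.2), *Hbb-bt* 0.0762 CPM (others 0) and *Pecam1* 0.0762 CPM (others 0) and the lowest for *Igf2bp1* 4.27 CPM (others 28 to 66.6) and *Ptprc* 0 CPM (others 6.49 to 9.996).

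The change with age differed between gp38+CD26- and gp38+CD26+ cells for 48 named genes, at an adjusted p under 0.05 over all 14066 genes. With libraries at the same position in the title numbers sharing a term, 12 of them lost the call, as named in the next section. Each value is the log2 fold change in gp38+CD26- minus that in gp38+CD26+ cells. It was positive for *Sele* 4.25, *Ltc4s* 4.13, *Apoe* 3.88, *Mmp3* 3.69, *Apod* 3.16, *Tnfsf13b* 2.91, *Hsd11b1* 2.79, *Igfbp7* 2.51, *B2m* 2.26, *Ltbp1* 2.18, *Serpine2* 2.14, *Kitl* 1.97, *Vcam1* 1.82, *Tmem176b* 1.71, *Cpxm1* 1.67, *Tmem176a* 1.53, *Sod3* 1.5, *Bgn* 1.30, *Nfkbia* 1.07, *Pdpn* 0.77 and *Dcn* 0.61. It was negative for *Aldh1a2* -5.69, *Timp3* -4.88, *H19* -4.26, *Mest* -2.53, *Rrm2* -2.48, *Igfbp3* -2.07, *Peg3* -1.97, *Ebf2* -1.82, *Mcm7* -1.68, *Nid1* -1.65, *Igfbp6* -1.53, *Gdf10* -1.33 and *Grb10* -1.26. The values of *Mrgprg* -18.76, *Car8* -15.18, *Faim2* -13.48, *Col8a1* -12.70, *Lmntd1* -11.25, *Klf14* -8.19, *Igf2bp3* -5.10, *Ccl8* 5.22, *Reg3g* 7.77, *Casp1* 7.89, *Agt* 8.16, *Pde1b* 9.54, *Car4* 9.73 and *Slc16a12* 10.37 involve a group with no or nearly no counts and depend on the prior count of the fit. A positive value also covers genes that fell less in gp38+CD26- cells, as *Sele* and *Nfkbia* did.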

How the results depend on the processing

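The numbers of genes called between P0 and 4 weeks in gp38+CD26- cells (1579 higher, 1408 lower) stayed within 1.5 times under RLE size factors, DESeq2, no filter on low counts and the title prefix as a term. In DFCK libraries alone they were 773 and 412, and in TXCK libraries alone 992 and 657, with 3 libraries for each age. With 4 sorted populations in 1 fit, 841 genes were lower. When single libraries were left out, 1380 to 1783 genes were higher and 1104 to 1309 lower. For the difference from gp38+CD26+ cells, the more negative genes numbered 461 in DESeq2 and 145 with the shallow library kept. In single CapFb1 fibroblasts DESeq2 called 2041 genes lower. Without 1 library, 2626 to 3700 genes were higher and 2432 to 3485 lower in medullary, and 2269 to 3381 and 2108 to 3396 in CapFb1 fibroblasts; the lone library left at an age was then assumed to vary like those of the other age. With the replicate block, medullary fibroblasts gave 3582 higher and 3306 lower genes, and CapFb1 fibroblasts 3147 and 2977. The deviations of same-numbered libraries correlated at 0.00711 and 0.0467 over 2 pairs, so these numbers were not taken to pair the libraries. The sorted libraries carry running numbers in place of replicate numbers, so the ages could not be paired. The numbers of the gp38+CD26+ and gp38+CD26- libraries of an age differ by a constant, and libraries at the same position shared a replicate block in a fit chosen after seeing the data. With this block 328 genes differed between the populations in place of 702, 141 of them with the more negative change in gp38+CD26- cells, and 287 genes were called both with and without it. Of the named genes 12 lost their call (*Car4*, *Car8*, *Ccl8*, *Faim2*, *Gdf10*, *Lmntd1*, *Ltc4s*, *Mcm7*, *Mmp3*, *Pde1b*, *Pdpn* and *Slc16a12*) and 4 gained one. The deviations of same-positioned libraries correlated at 0.0156 to 0.0610. All were positive and 8 of 11 were the highest of their library, but none reached the 0.1 set for taking numbers as a pairing. No label says whether libraries at the same position share a source, so neither 702 nor 328 is the settled number. The difference changed sign under the block for *H2-Q6*, *Hba-a1*, *Ltbp4* and *Pecam1*, none of them called for it in either fit. No named gene that was called between the ages, and so picked on these same libraries, changed the sign of that change under the alternatives for it. Of those not called between the ages, *Dpp4* went from -1.12 to 0.30 in TXCK libraries alone, and *Pdgfra*, at -0.08, was at 0.10 in DFCK libraries alone, 0.01 without 4-week replicate 1 and 0.02 without P0 replicate 1. Of the 121 named genes fitted, 22 lost their call with 4 populations in 1 fit, 13 in DFCK libraries alone (of 120) and 11 in TXCK libraries alone, and none under DESeq2, RLE or no filter. The cause of these differences was not tested. In the fits within a prefix, the fewer libraries and the prefix itself cannot be told apart. For genes of a few CPM or less, libraries without a count were common, and the cause was not tested. Some stood beside libraries with clear counts. *Mmp3* was at 0 CPM in P0 replicate 4 (others 6.64 to 20.1), and *Ptprc* at 0 CPM in P0 replicate 6 (others 6.49 to 9.996).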
